A study of Homo sapiens with 8 samples.

Results

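The mitochondrial ribosomal protein genes are the genes whose symbol in the array's probe annotation reads MRPL or MRPS followed by a number and at most one letter. The rule found 73 genes among the 14884 with a symbol, 23 of them encoding proteins of the small subunit of the mitochondrial ribosome and 50 encoding proteins of the large one. MRPS30 and MRPS18A are counted with the large subunit, where their proteins sit despite their names. All 73 lay above the level below which genes were not tested, a mean of 5.18 on the log2 scale, and were therefore among the 8930 genes tested.

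The values come from 8 Affymetrix arrays of CCRF-CEM and HPB-ALL cells, established human lines grown from T cell acute lymphoblastic leukaemia. Each line gave 1 array of cells carrying the short hairpin RNA shTOX-1, 1 with shTOX-2, 1 with a scramble hairpin and 1 of untransduced cells. Both shTOX hairpins target TOX, a nuclear protein with an HMG-box domain that T cell development in the thymus requires. Hairpin-carrying cells went through viral transduction, puromycin selection and a wait of at least 2 weeks before RNA was taken, steps that the untransduced cells did not share; all cells grew in RPMI with serum. The labels name no separate cultures, and no construct was repeated within a line. Comparisons of shTOX with scramble, untransduced cells or pooled controls therefore treat both hairpins as repeats of 1 condition, although TOX was lower with shTOX-2. All p-values measure the spread between these arrays only. That spread includes differences between constructs fitted as 1 group and between the lines' responses, and part of it may be technical.

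Mitochondria keep a small genome of their own, and the proteins it encodes are core subunits of the respiratory chain and the ATP synthase. They are made on a dedicated ribosome with a small subunit, which reads the mRNA, and a large one, which joins the amino acids and sits at the inner membrane. The RNA of this ribosome comes from the mitochondrial genome, whereas all of its proteins are encoded in the nucleus and imported. Some of these proteins have relatives in bacterial ribosomes (43 of the 73 by a list drawn up from general knowledge) and the others (30) arose in the mitochondrial lineage.

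TOX stood at log2 10.65 with shTOX-1, 9.86 with shTOX-2, 11.03 with scramble and 11.03 in untransduced CCRF-CEM cells. In HPB-ALL it stood at 10.16 with shTOX-1, 8.75 with shTOX-2, 10.59 with scramble and 10.64 untransduced. TOX thus lay below both controls in all 4 shTOX arrays, and lower with shTOX-2 than with shTOX-1 in both lines, though the difference was not called (shTOX minus controls -0.96 ± 0.28; limma adjusted p = 0.292; exact two-sided permutation p within lines = 0.0556, the smallest its 36 assignments can give). Of 9 T lineage markers fixed for a check of the cell type, 5 were measured; CD247, CD5, CD7 and LCK lay above the filter level on all 8 arrays and CD2 between 4.04 and 5.97. The one B cell marker measured, PAX5, lay at 5.01 to 5.72, the myeloid CD14 and CSF1R below the filter level on all 8 arrays, the myeloid MPO between 4.47 and 7.94, the myeloid LYZ between 3.58 and 5.25, and none of the 3 erythroid markers was measured. Of the fibroblast and epithelial markers EPCAM lay at 3.51 to 5.18, and KRT18, a keratin, above the filter level on all 8 arrays at 6.95 to 7.94. The array medians over all probe sets lay between 4.62 and 4.71.

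Most mitochondrial ribosomal protein genes stood lowest in untransduced cells. In both lines the untransduced array was the lowest of its 4 arrays for 43 of the 73 members (58.9%), against 20.5% of all tested genes. It was the highest in both lines for 3 members (4.11%), against 16.7% of all tested genes. The pattern was found in 14 of 23 small subunit genes and 29 of 50 large subunit genes, and in 30 of the 43 genes with a bacterial relative and 13 of the 30 without one.

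**Figure D1:**
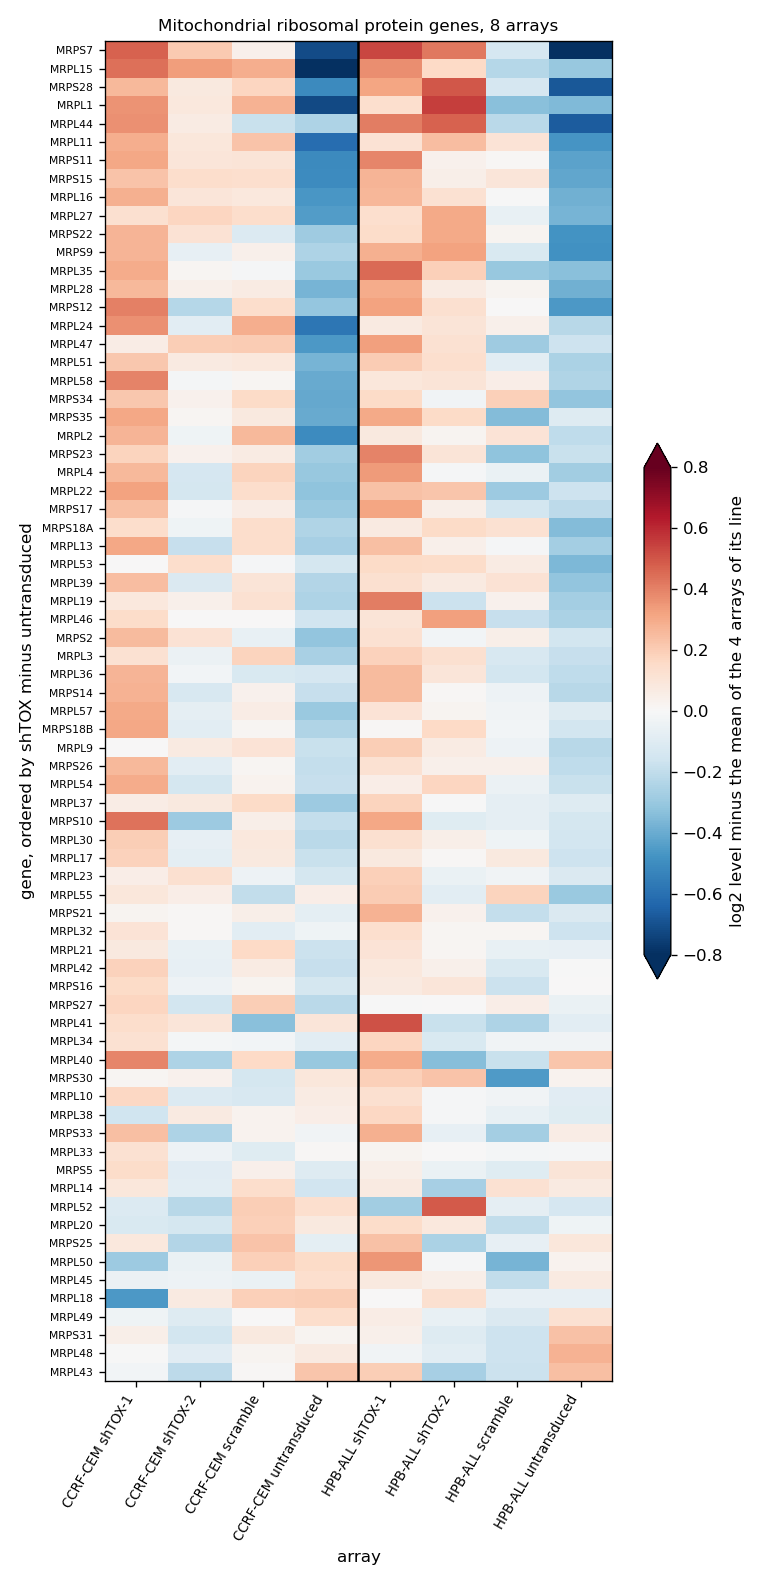
Each row is 1 of the 73 members and each column 1 array; colour gives the log2 level minus the mean of the 4 arrays of the same line, red above it and blue below it, with the strongest colours standing also for values past the ends of the scale. Rows run from the highest to the lowest shTOX minus untransduced difference; the 2 untransduced columns are blue over most rows, and shTOX-1 is red over most rows in both lines.

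Set against the scramble array of the same line, the members' median log2 difference in CCRF-CEM was 0.114 with shTOX-1, -0.099 with shTOX-2 and -0.285 in untransduced cells. In HPB-ALL it was 0.243 with shTOX-1, 0.082 with shTOX-2 and -0.077 in untransduced cells. The corresponding medians of all tested genes stayed between -0.033 and 0.048. Members above their scramble array numbered 52 of 73 with shTOX-1, 21 with shTOX-2 and 12 untransduced in CCRF-CEM (71.23%, 28.77% and 16.44%). The shares of all tested genes there were 55.69%, 44.58% and 47.25%. The HPB-ALL numbers were 66, 57 and 22 (90.41%, 78.08% and 30.14%), against 56.64%, 51.72% and 48.24% of all tested genes. These 6 comparisons share a scramble array within each line. In CCRF-CEM the median level of the tested genes was 7.56 in the shTOX-2 array and 7.655 in the scramble array. These medians and counts were not recomputed with arrays centred on that level.

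**Figure D2:**
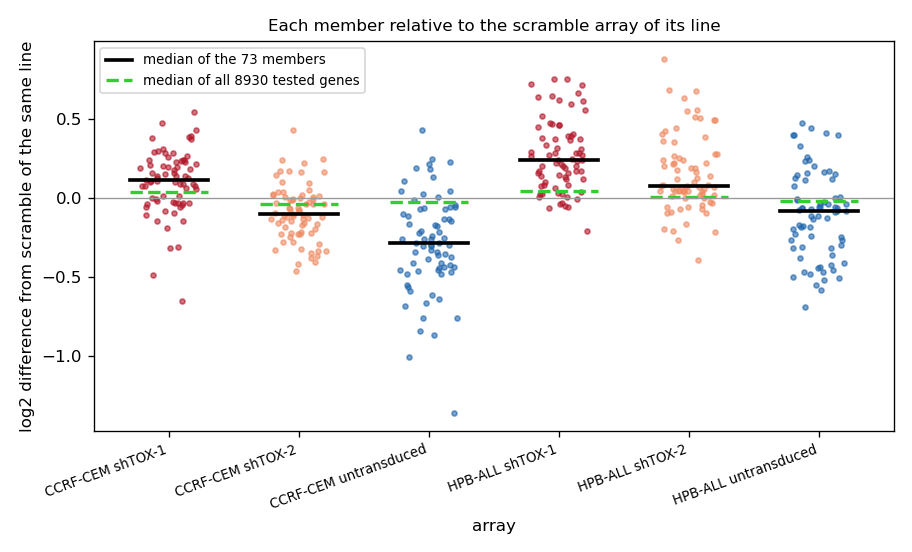
Points are the 73 members, placed by their log2 difference from the scramble array of the same line (vertical axis) on each of the other 6 arrays (horizontal axis, with random sideways scatter); black bars give the members' medians and dashed green bars the medians of all 8930 tested genes. The member median lies farthest below 0 in untransduced CCRF-CEM cells (-0.285) and farthest above it in HPB-ALL cells with shTOX-1 (0.243).

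The comparison of 4 shTOX arrays with 2 untransduced arrays asks what differs between knockdown cells and cells that never met virus or selection. In a limma fit with line and treatment as terms, 14 of the 73 members (19.2%) were called higher at a Benjamini-Hochberg adjusted p under 0.05 over all tested genes, against 6.18% of all tested genes, and 0 were called lower, against 5.64%. The 14 were MRPS7, MRPS9, MRPS11, MRPS15, MRPS22 and MRPS28 of the small subunit and MRPL1, MRPL11, MRPL15, MRPL16, MRPL27, MRPL28, MRPL44 and MRPL51 of the large one; 11 of them have bacterial relatives. Of all 73 members 62 had a positive difference, with a median of 0.292, against 54.97% positive and a median of 0.039 over all tested genes. The count depends on single arrays: it was 8 without the CCRF-CEM shTOX-1 array and 7 without the HPB-ALL shTOX-2 array. Most calls were lost when either untransduced array was left out, fits in which the remaining untransduced array is taken to vary like the others. The share of all tested genes called in these refits was not counted. The members' median moved less, to 0.271 without the untransduced CCRF-CEM array, 0.304 without the HPB-ALL one, 0.268 without the CCRF-CEM shTOX-1 array and 0.307 without the HPB-ALL shTOX-2 array.

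MRPS7, a protein of the small subunit's head and the relative of bacterial S7, moved most. In CCRF-CEM its log2 level was 10.39 with shTOX-1 and 10.13 with shTOX-2, against 9.96 with scramble and 9.20 untransduced. In HPB-ALL it was 10.26 and 10.15, against 9.60 and 8.91. The order shTOX-1, shTOX-2, scramble, untransduced was the same in both lines, and no shTOX array overlapped with a control. MRPS7 rose 2.26-fold over untransduced cells (log2 difference 1.18 ± 0.14, standard error; adjusted p = 0.00374), and the difference was 1.25 (adjusted p = 0.0536) without the untransduced CCRF-CEM array.

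MRPL15, a large subunit protein with a bacterial relative, was at 9.93 and 9.82 with shTOX-1 and -2 in CCRF-CEM, against 9.78 with scramble and 8.42 untransduced. In HPB-ALL it was at 10.00 and 9.79, against 9.40 and 9.32. The untransduced CCRF-CEM array alone lay more than 1 log2 unit below the others of its line. The difference of 1.01 ± 0.23 (adjusted p = 0.0231) was 0.50 (adjusted p = 0.262) without that array. It also missed the threshold without the CCRF-CEM array of shTOX-1 (adjusted p = 0.0522) or of shTOX-2 (0.0559).

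MRPS28, the mitochondrial relative of bacterial S1, was at 7.30 and 7.12 with shTOX-1 and -2 in CCRF-CEM, against 7.21 with scramble and 6.53 untransduced. The shTOX levels in HPB-ALL were 7.57 and 7.75, against 7.12 and 6.57. Scramble lay between the shTOX arrays in CCRF-CEM and below them in HPB-ALL. The gene rose 1.85-fold over untransduced cells (0.89 ± 0.16; adjusted p = 0.0121), and the difference was 1.00 (adjusted p = 0.0942) without the untransduced CCRF-CEM array and 0.77 (0.0894) without the HPB-ALL one.

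MRPL44, an RNase III-like protein near the exit of the polypeptide tunnel, was at 9.16 and 8.86 with shTOX-1 and -2 in CCRF-CEM, against 8.62 with scramble and 8.55 untransduced. In HPB-ALL it was at 9.29 and 9.36, against 8.67 with scramble and 8.22 untransduced. Here, unlike in MRPS28, the shTOX arrays lay above both controls in both lines. The gene rose 1.72-fold over untransduced cells (0.78 ± 0.17; adjusted p = 0.0208); without the untransduced HPB-ALL array the difference was 0.50 (adjusted p = 0.191). It was 1.06 (adjusted p = 0.0613) without the untransduced CCRF-CEM array, 0.73 (0.051) without the HPB-ALL shTOX-2 array, and 0.38 (0.106) with the mean of its probe sets.

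MRPL1, a large subunit protein with a bacterial relative, was at 7.23 and 6.96 with shTOX-1 and -2 in CCRF-CEM, against 7.15 with scramble and 6.15 untransduced. The shTOX levels in HPB-ALL were 6.20 and 6.62, against 5.73 and 5.71. Scramble thus lay with shTOX in CCRF-CEM and with untransduced cells in HPB-ALL. MRPL1 had the largest standard deviation of all members over the 8 arrays, 0.61, followed by MRPL41 (0.56) and MRPS7 (0.54). Its difference from untransduced cells was 0.82 ± 0.21 (adjusted p = 0.0368), and it missed the threshold without any one of the CCRF-CEM shTOX-1, CCRF-CEM shTOX-2, HPB-ALL shTOX-2 and both untransduced arrays (adjusted p from 0.0546 to 0.33), and also with no filter on dim genes (0.0553). The difference itself was 0.58 without the untransduced CCRF-CEM array and 1.07 without the HPB-ALL one.

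The other called genes rose 1.38-fold (MRPL51) to 1.66-fold (MRPL11) over untransduced cells. MRPL11, a protein at the base of the stalk that recruits translation factors, was at 9.75 and 9.55 with shTOX-1 and -2 in CCRF-CEM, against 9.69 with scramble and 8.85 untransduced. In HPB-ALL it was at 9.08 and 9.21, against 9.07 and 8.49. In MRPL11 the untransduced array alone stood apart in each line. On the negative side no member passed; the smallest p-values belonged to MRPL43 (-0.31 ± 0.16; adjusted p = 0.235), MRPL48 (-0.23 ± 0.13; adjusted p = 0.282), MRPL49 (-0.16; adjusted p = 0.413), MRPS31 (-0.17; adjusted p = 0.462) and MRPL45 (-0.09; adjusted p = 0.655). MRPL48 belongs to the central protuberance, and MRPL45 helps to hold the ribosome at the inner membrane.

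**Figure D3:**
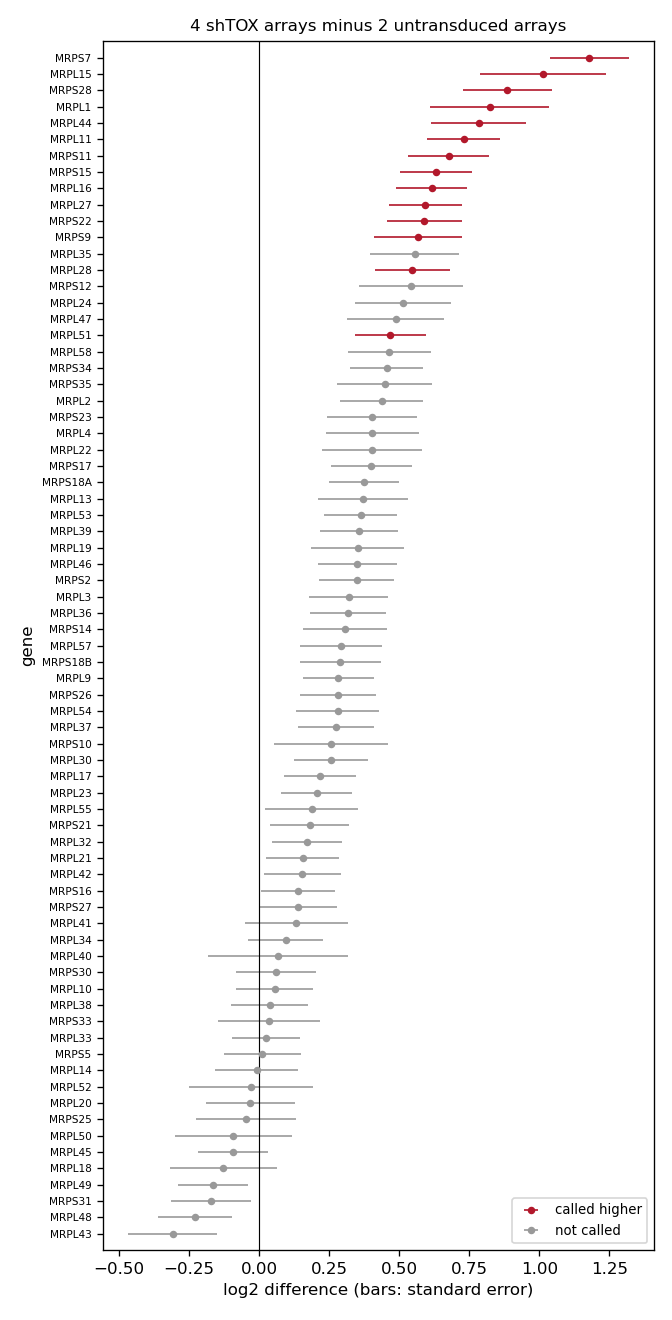
Each point is 1 member's log2 difference between the 4 shTOX arrays and the 2 untransduced arrays (horizontal axis), from the fit with line and treatment, with bars of 1 standard error; red marks the 14 genes called higher. MRPS7 is at the top with 1.18 and MRPL43 at the bottom with -0.31.

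Genes of cell division moved with the same arrays: 16 of 17 measured genes of a list for G2 and mitosis were called higher with shTOX than in untransduced cells, against 6.18% of all tested genes. All 17 were lower in the untransduced array than with scramble in each line, with medians of -0.891 in CCRF-CEM and -0.655 in HPB-ALL. In the shTOX arrays the list's medians against scramble were -0.069 (shTOX-1) and 0.057 (shTOX-2) for CCRF-CEM, and 0.004 and 0.135 for HPB-ALL. The list was low with the members in untransduced cells, and stood higher with shTOX-2 than with shTOX-1, the opposite order to the members. The list's calls were not recomputed with arrays left out. The part of cell division in the members' difference was not tested.

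Scramble and untransduced cells carry no TOX hairpin and differ in transduction and selection. The scramble minus untransduced difference was positive for 58 of the 73 members (79.45%), with a median of 0.201, against 53.43% and 0.022 over all tested genes; the median was 0.124 without the CCRF-CEM scramble array. In limma 0 members were called higher (0.582% of all tested genes) and 0 lower (0.482%), while 14 members (19.2%) had an unadjusted p under 0.05, against 17.5% of all tested genes. The smallest p-values among positive differences belonged to MRPL11 (0.71 ± 0.15; adjusted p = 0.0637), MRPS7 (0.72 ± 0.16; adjusted p = 0.0717) and MRPS15 (0.57 ± 0.15; adjusted p = 0.0923). Among negative ones they belonged to MRPS30 (-0.35 ± 0.16; adjusted p = 0.304), MRPL43 (-0.32; adjusted p = 0.408) and MRPL48 (-0.25; adjusted p = 0.434). This comparison and the one before share the 2 untransduced arrays.

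Sequences in front of these genes were looked up because most members were lowest on the same arrays. RefSeq promoters (GRCh38.p14; 250 bases before and 50 after the gene's start) were found for 65 of the 73 members and for 6988 tested genes. The motif CCGGAAG, the core bound by ETS-family factors, was held on either strand by 28 members (43.1%), against 20.2% of tested genes. AAGATGG, part of the YY1 motif, was held by 22 members (33.8%), against 8.06%. It contains the letters ATG, and 15 of its 23 matches in the members lay after the start, against 305 of 600 in tested genes. At least 1 of these motifs stood in 41 members (63.1%), against 26.4% of tested genes, and in 0 members did they overlap. CGCATGCG, the core of the NRF1 motif, was held by 2 members (3.08%), against 4.22%. GGGCGG, bound by SP1, was held by 40 members (61.5%), against 70.4%, the E-box CACGTG by 5 (7.69%), against 10.3%, and CCAAT by 19 (29.2%), against 37.2%. Among the 12 promoters of genes called higher than in untransduced cells, 7 held the ETS or the YY1 motif (58.3%), against 34 of the other 53 (64.2%). The matches describe letters in these windows and show no binding.

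The following lines print the stretch from 70 bases before to 30 bases after the start for 7 of the 11 looked-up members that were called against untransduced cells or between the lines and hold a match there (the others are MRPL28, MRPL53 and MRPS26 with the ETS motif, and MRPL36 with the YY1 motif before the start), 5′ to 3′ on the gene's strand, with matches to the ETS and YY1 motifs, on either strand, in capitals. MRPS7 (chr17:75261809-75261908, plus strand), MRPL51 (chr12:6493233-6493332, minus strand), MRPL46 (chr15:88467359-88467458, minus strand) and MRPL50 (chr9:101398589-101398688, minus strand) carry AAGATGG after the start. The ETS motif stands before the start in MRPL27 (chr17:50373155-50373254, minus strand), across it in MRPL16 (chr11:59810749-59810848, minus strand) and after it in MRPS22 (chr3:139343924-139344023, plus strand).
MRPS7: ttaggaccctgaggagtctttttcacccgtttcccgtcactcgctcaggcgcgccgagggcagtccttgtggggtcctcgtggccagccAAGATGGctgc
MRPL51: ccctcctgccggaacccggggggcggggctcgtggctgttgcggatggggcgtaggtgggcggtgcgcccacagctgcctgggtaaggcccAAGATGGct
MRPL46: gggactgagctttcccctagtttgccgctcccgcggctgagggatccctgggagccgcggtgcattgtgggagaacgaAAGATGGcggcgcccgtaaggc
MRPL50: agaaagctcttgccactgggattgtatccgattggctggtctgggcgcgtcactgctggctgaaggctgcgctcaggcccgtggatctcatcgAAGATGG
MRPL27: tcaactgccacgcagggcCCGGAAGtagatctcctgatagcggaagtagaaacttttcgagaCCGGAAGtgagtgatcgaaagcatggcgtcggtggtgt
MRPL16: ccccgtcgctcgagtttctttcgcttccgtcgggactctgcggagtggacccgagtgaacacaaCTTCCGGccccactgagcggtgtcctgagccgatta
MRPS22: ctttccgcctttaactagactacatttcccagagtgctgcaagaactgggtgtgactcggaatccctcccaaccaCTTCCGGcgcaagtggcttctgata

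Some members start beside another gene that points the other way. By RefSeq's start sites (GRCh38.p14), 20 of the 65 members (30.8%) had a head-to-head neighbour within 1000 bases, against 24.1% of the tested genes with a promoter. Of these neighbours 10 were tested, of which 1 was called higher than in untransduced cells and 2 lower, against 6.18% and 5.64% of all tested genes. The one called higher is itself a member, MRPS11, whose start lies 320 bases from that of MRPL46. MRPS11 rose by 0.68 ± 0.14 over untransduced cells (adjusted p = 0.0202), and MRPL46 was at 0.35 (adjusted p = 0.135). The 2 called lower were FAU (-0.74; adjusted p = 0.0368), beside MRPL49 at -0.16, and ZNF189 (-0.68; adjusted p = 0.0388), beside MRPL50 at -0.09. MRPL27 rose by 0.59, while EME1, whose start lies 45 bases away, was at -0.09 (adjusted p = 0.789).

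The comparison of shTOX with scramble and untransduced arrays pooled as controls is the main contrast of the design. Differences leaned to the positive side, with 63 of 73 members above 0 (86.3%), a median of 0.183 and a range from -0.15 to 0.82, against 54.73% and a median of 0.026 over all tested genes. No member passed: limma called 0 of the 73 and 0% of all tested genes, while 19 members (26%) had an unadjusted p under 0.05, against 14.3% of all tested genes. Both shTOX arrays lay above both controls in both lines for 9 members (12.3%), against 6.36% of all tested genes, and below them for 0, against 4.99%. The 9 were MRPS7, MRPS22, MRPL15, MRPL16, MRPL32, MRPL35, MRPL36, MRPL44 and MRPL53. Since the untransduced arrays are 2 of the 4 controls, this contrast holds the difference described above; without both untransduced arrays the members' median was 0.088.

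The smallest p-values belonged to MRPL44 (0.65 ± 0.15), MRPS7 (0.82 ± 0.20) and MRPL35 (0.47 ± 0.14), each with an adjusted p of 0.292, and to MRPS22 (0.42 ± 0.13) and MRPS28 (0.58 ± 0.19), each with an adjusted p of 0.301. MRPL35, a large subunit protein with a bacterial relative, was at 10.21 and 9.93 with shTOX-1 and -2 in CCRF-CEM, against 9.91 with scramble and 9.61 untransduced. The shTOX levels in HPB-ALL were 9.57 and 9.31, against 8.82 and 8.78. The shTOX arrays lay clear of the controls in HPB-ALL, and shTOX-2 lay next to scramble in CCRF-CEM. MRPS22, a small subunit protein without a bacterial relative, was at 7.58, 7.43, 7.50 and 7.66 in the shTOX arrays, against 7.20 and 7.38 with scramble and 7.03 and 6.88 untransduced. The negative differences were small: MRPL43 stood at -0.15 (adjusted p = 0.645), MRPL48 at -0.10 (0.699), MRPL18 at -0.13 (0.711), MRPL14 at -0.10 (0.742) and MRPS31 at -0.08 (0.766).

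**Figure D4:**
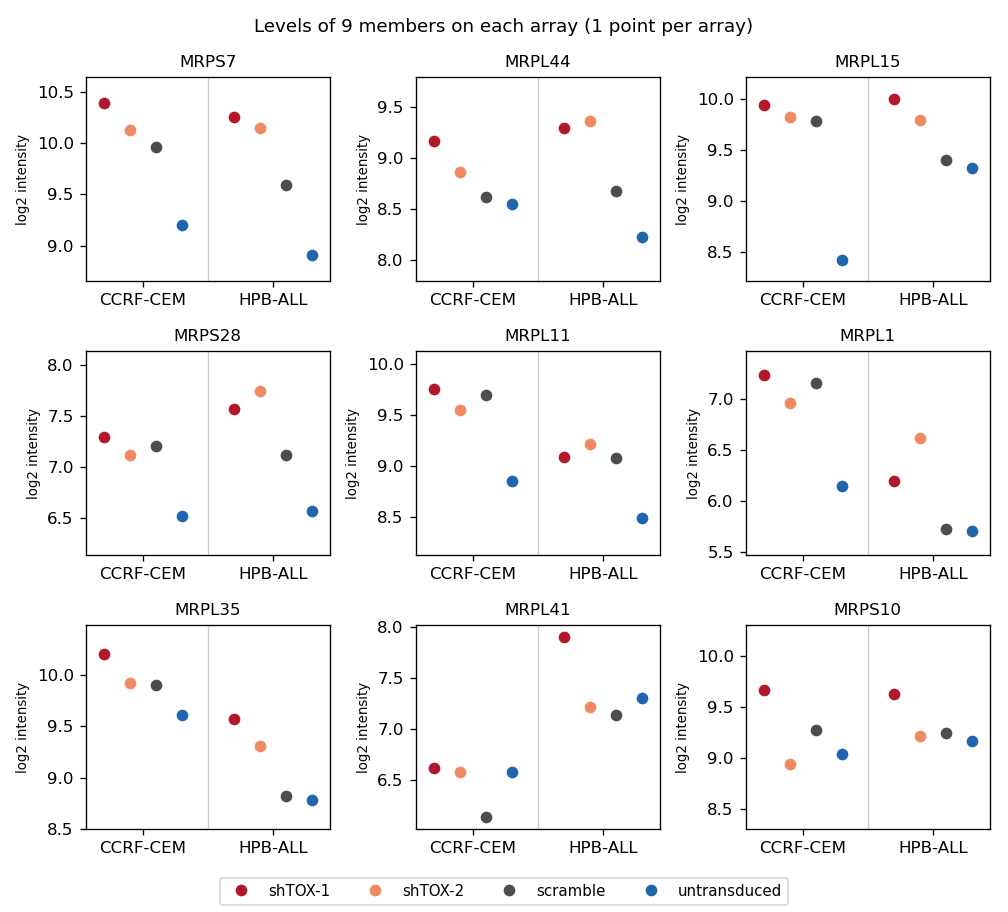
Log2 intensity (vertical axis, the same span in every panel) of 9 members on each of the 8 arrays, 1 point per array, CCRF-CEM left and HPB-ALL right in each panel, with shTOX-1, shTOX-2, scramble and untransduced cells in this order. MRPS7 falls in the same order in both lines; MRPL11 is low only in the untransduced arrays of each line; MRPL35 is higher and MRPL41 lower in CCRF-CEM; MRPS10 is high with shTOX-1 in both lines.

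Against scramble alone, the control that shares virus and selection, the differences were smaller. Of the 73 members 60 were positive (82.19%), with a median of 0.088, against 53.82% and 0.016 over all tested genes. The median depends on single arrays: it was -0.004 when the HPB-ALL scramble array was left out, 0.153 when that of CCRF-CEM was, and 0.046 or 0.139 when the shTOX-1 or the shTOX-2 array of CCRF-CEM was. In limma 0 members and 0% of all tested genes were called, and 5 members (6.85%) had an unadjusted p under 0.05, against 5.14% of all tested genes. The smallest p-values belonged to MRPS7 (0.45 ± 0.14), MRPL44 (0.52 ± 0.17) and MRPS30 (0.41 ± 0.14), each with an adjusted p of 0.93. MRPS30, a large subunit protein despite its name, was at 9.56 and 9.58 with shTOX-1 and -2 in CCRF-CEM, against 9.41 with scramble and 9.63 untransduced. In HPB-ALL it was at 9.96 and 9.99, against 9.32 and 9.80. It was lowest with scramble in both lines. On the negative side were MRPL14 (-0.18; adjusted p = 0.946), MRPS27 (-0.12; adjusted p = 0.965) and MRPS25 (-0.12; adjusted p = 0.967).

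Most members stood lower with shTOX-2, where TOX was lower, than with shTOX-1. The shTOX-2 minus shTOX-1 difference was positive for 10 members (13.7%) and negative for 63, with a median of -0.159, against 41.55% positive and a median of -0.042 over all tested genes. The shTOX-2 array lay below shTOX-1 in both lines for 47 members (64.4%), against 37% of all tested genes, and above it in both for 3 (4.11%), against 22.1%. In limma 0 members and 0% of all tested genes were called, and 4 members (5.48%) had an unadjusted p under 0.05, against 4.27%. The size of the median depends on scaling: the median level of the tested genes was 7.56 in the CCRF-CEM shTOX-2 array and 7.64 to 7.73 in the other 7, and with arrays centred on it the members' median was -0.055 (-0.133 with quantile normalization). The counts of 63 and 47 members were not recounted with centred arrays and may depend on scaling too.

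MRPS10, a protein of the small subunit's head, was at 8.94 with shTOX-2 and 9.67 with shTOX-1 in CCRF-CEM, and at 9.22 and 9.63 in HPB-ALL. The controls stood at 9.28 (scramble) and 9.04 (untransduced) in CCRF-CEM and at 9.25 and 9.17 in HPB-ALL, so that shTOX-1 was the highest array of each line. Its difference was -0.57 ± 0.16, that of MRPL40, a protein of the central protuberance, -0.64 ± 0.21, and that of MRPS33 -0.42 ± 0.17, with adjusted p-values that round to 1. On the positive side MRPL18 stood at 0.33 ± 0.20, MRPL52 at 0.33 ± 0.24 and MRPL27 at 0.11 ± 0.22, likewise with adjusted p-values of 1. For MRPL52 the sign rests on the HPB-ALL shTOX-2 array (7.44, against 6.68 with shTOX-1); without it the difference was -0.14.

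The shTOX difference from both controls was positive for 61 of 73 members in CCRF-CEM (83.56%; median 0.147), against 54.29% of all tested genes (median 0.029). HPB-ALL had 64 positive members (87.67%; median 0.224), against 53.18% (median 0.019). Within single lines limma called 0 members and 0% of all tested genes, with an unadjusted p under 0.05 for 1 member in CCRF-CEM (1.37%), against 9.19% of all tested genes, and for 8 in HPB-ALL (11%), against 7.58%. The difference of these differences had a median of -0.094 over the members, against -0.024 over all tested genes. This members' median turned to 0.037 with quantile normalization and to 0.050 or 0.021 without the scramble or the shTOX-2 array of CCRF-CEM. It was -0.255 without the untransduced CCRF-CEM array. For the difference of differences limma called 0 members and 0% of all tested genes. An unadjusted p under 0.05 was found for 2 members (2.74%), against 4.59% of all tested genes. The smallest p-values belonged to MRPL50 (-0.68 ± 0.28), MRPL20 (-0.49 ± 0.21), MRPL18 (-0.52 ± 0.27) and MRPL44 (-0.45 ± 0.27), each with an adjusted p of 0.973. The shTOX arrays lay on opposite sides of both controls in the lines for 2 members (2.74%), MRPL18 and MRPL20, against 5.16% of all tested genes.

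The lines themselves differed in 13 members without a common direction. CCRF-CEM was called higher than HPB-ALL for 8 members (11%), against 12.4% of all tested genes, and lower for 5 (6.85%), against 14.9%. The median over the members was -0.004, against -0.006 over all tested genes, with 36 members positive. Of the 50 large subunit genes 8 were called higher and 3 lower. Of the 23 small subunit genes 0 were called higher and 2 lower, MRPS2 and MRPS26. The large subunit makes up most of the members, and the subunits were not compared by a test. Every CCRF-CEM array lay above every HPB-ALL array for 8 members, against 12.8% of all tested genes, and below for 3 (4.11%), against 14.2%. The 13 calls became 8 when the shTOX-2 array of CCRF-CEM or the shTOX-1 array of HPB-ALL was left out. How many of all tested genes were called in those fits was not counted.

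MRPL35 had the smallest p among the lines' differences: its 4 CCRF-CEM arrays, between 9.61 and 10.21, lay above the 4 HPB-ALL arrays, between 8.78 and 9.57. It was 1.73-fold higher in CCRF-CEM (0.79 ± 0.14; adjusted p = 0.00169). MRPL1 averaged 6.87 ± 0.50 in CCRF-CEM and 6.06 ± 0.43 in HPB-ALL (SD, n = 4 each), 1.75-fold higher in CCRF-CEM (limma adjusted p = 0.0152). Its lowest CCRF-CEM array, 6.15 in untransduced cells, lay within the HPB-ALL range, and its adjusted p was 0.0519 without the HPB-ALL shTOX-1 array. MRPL36 (0.58 ± 0.11; adjusted p = 0.00356), MRPL57 (0.56 ± 0.13; adjusted p = 0.00945), MRPL46 (0.53 ± 0.12; adjusted p = 0.00799), MRPL22 (0.51 ± 0.15; adjusted p = 0.0292), MRPL23 (0.49 ± 0.11; adjusted p = 0.00725) and MRPL53 (0.46 ± 0.12; adjusted p = 0.021) were the other higher members. MRPL22 and MRPL23 line the exit of the polypeptide tunnel. The call of MRPL22 was lost without any one of 6 arrays, all but the CCRF-CEM shTOX-2 and untransduced ones (adjusted p from 0.0559 to 0.0897), and its level in HPB-ALL, 5.48 ± 0.27 (SD, n = 4), lay near the filter level of 5.18, so background may limit the size of its difference.

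MRPL41, a large subunit protein without a bacterial relative, differed most on the lower side. Its CCRF-CEM arrays were at 6.62 with shTOX-1, 6.58 with shTOX-2, 6.14 with scramble and 6.58 untransduced, against 7.90, 7.21, 7.14 and 7.31 in HPB-ALL. The lines did not overlap, and it was 1.88-fold lower in CCRF-CEM (-0.91 ± 0.16; adjusted p = 0.00243). MRPL50 (-0.56 ± 0.17; adjusted p = 0.0362), MRPS26 (-0.48 ± 0.12; adjusted p = 0.0159), MRPL34 (-0.42 ± 0.11; adjusted p = 0.0177) and MRPS2 (-0.39 ± 0.12; adjusted p = 0.0379) were lower too, and MRPS23 stood at -0.39 ± 0.13 (adjusted p = 0.0526), next to the threshold. MRPS23 was called without the scramble array of CCRF-CEM (-0.49; adjusted p = 0.0232) or of HPB-ALL (-0.45; 0.0434), with the 60th percentile filter (0.0482) and with trend and robust moderation (0.0467). Without the CCRF-CEM shTOX-2 array the calls of MRPS26 (-0.41; adjusted p = 0.0591) and MRPL34 (-0.40; 0.0584) were lost, that of MRPL34 also without the HPB-ALL shTOX-1 array (-0.37; 0.0618). The call of MRPL50 was lost without any one of the shTOX arrays or the untransduced HPB-ALL array (adjusted p from 0.0798 to 0.11). That of MRPS2 was lost without any one of 6 arrays, all but the CCRF-CEM shTOX-1 and HPB-ALL shTOX-2 ones (0.0558 to 0.0975), and also with the mean of its 2 probe sets (-0.20; adjusted p = 0.288), with quantile normalization (0.101) and with median-centred arrays (0.0596).

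**Figure D5:**
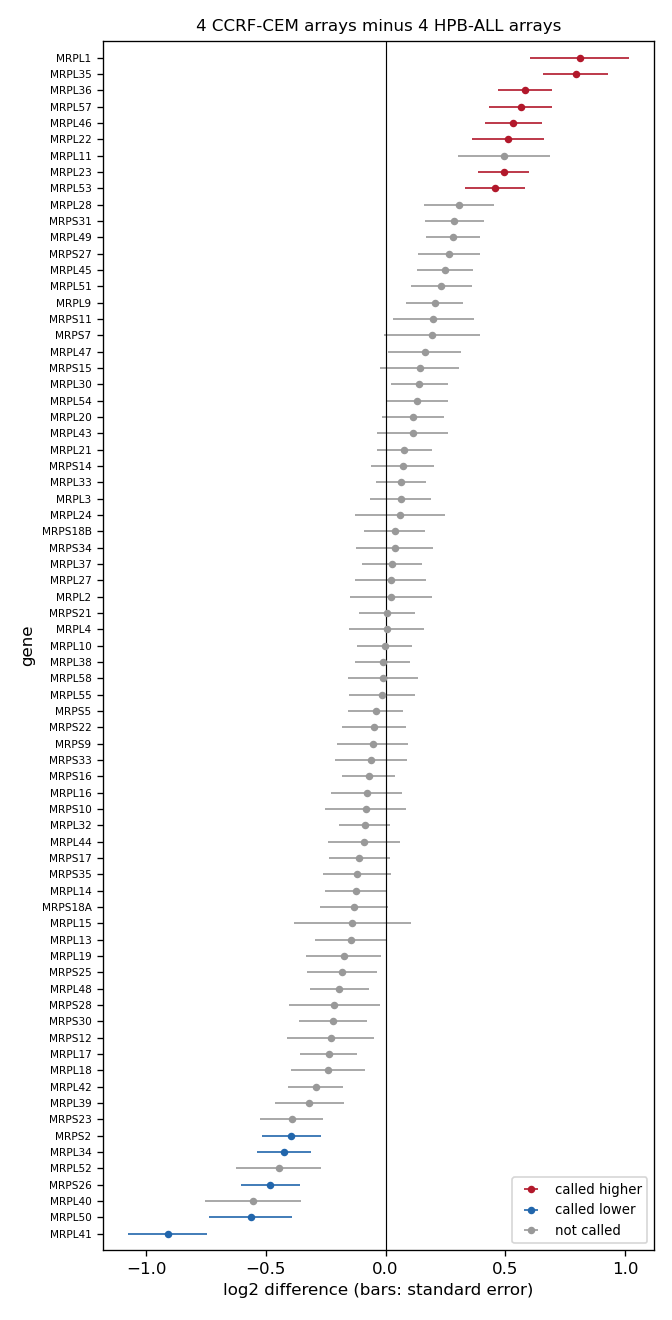
Each point is 1 member's log2 difference between the 4 CCRF-CEM arrays and the 4 HPB-ALL arrays (horizontal axis), from the fit with line and shTOX, with bars of 1 standard error; red marks the 8 members called higher in CCRF-CEM and blue the 5 called lower. MRPL1 is at the top with 0.81 and MRPL41 at the bottom with -0.91.

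Of the 73 members 4 had more than 1 probe set. MRPS18B had 7 with identical values, which counted as 1. The second probe set of MRPL44 lay far below the filter level. It was between 2.40 and 2.74 with shTOX, at 2.59 and 2.60 with scramble and at 2.48 and 2.75 untransduced. The called probe set of MRPL44 thus stands alone. Those of MRPS16 differed in level and order: the one used lay between 10.30 and 10.60 over all arrays, and the other ranged from 6.59 in untransduced CCRF-CEM cells to 8.20 in untransduced HPB-ALL cells.

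Other parts of the mitochondrial translation system were followed by lists. The calls of these and the other gene lists were not recomputed with arrays left out. Of 23 tested mitoribosome assembly factors, 7 rose and 1 fell against untransduced cells, where 6.18% of all tested genes were called higher and 5.64% lower; the list's median was 0.276, against 0.039 over all tested genes. The pseudouridine-synthesis factor RCC1L was at 0.85 ± 0.14 (adjusted p = 0.00865), the helicase DDX28 at 0.84 ± 0.16 (adjusted p = 0.0131) and MTERF4, which guides the rRNA methyltransferase NSUN4, at -0.54 ± 0.14 (adjusted p = 0.0368). Against both controls limma called 0 of 23 and 0% of all tested genes. An unadjusted p under 0.05 was found for 7 of them (30.43%), against 14.3% of all tested genes, led by DDX28 (0.62), TRUB2 (0.53) and MRM3 (0.37). Between the lines METTL15 (0.48 ± 0.13, limma adjusted p = 0.0202) was the one called, higher in CCRF-CEM, where 12.4% of all tested genes were called higher and 14.9% lower.

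Of 18 tested genes of mitochondrial RNA synthesis and handling, 4 rose and 0 fell against untransduced cells, beside the same shares of 6.18% and 5.64%: HSD17B10 (0.93 ± 0.18; adjusted p = 0.0146), a subunit of mitochondrial RNase P, PNPT1 (0.53), SLIRP (0.51) and ELAC2 (0.46). HSD17B10 stood out in the earlier results that were known when this list was drawn up. Between the lines 1 of the 18 was higher in CCRF-CEM, HSD17B10 (0.47 ± 0.15; adjusted p = 0.0367), and 6 were lower, led by MTERF1 (-0.50 ± 0.12; adjusted p = 0.0105), SLIRP (-0.43) and the tRNA-modifying GTPBP3 (-0.43), where 12.4% of all tested genes were called higher and 14.9% lower. Of 9 translation factors 0 were called against untransduced cells in limma, with 4 at an unadjusted p under 0.05 (44.44%), against 29.15% of all tested genes. Between the lines limma called 0 of the 9, with 3 at an unadjusted p under 0.05 (33.33%), against 38.86%. Against both controls TACO1 was at 0.30, MTRF1L at 0.27 and MRRF, which recycles ribosomes, at -0.38 (limma adjusted p from 0.361 to 0.385). The 2 measured genes of glutamyl-tRNA amidation, listed with the tRNA synthetases, were at 0.26 (GATB) and 0.15 (QRSL1) against both controls; GATB rose against untransduced cells (0.52 ± 0.12; adjusted p = 0.0263) and was higher in CCRF-CEM (0.65 ± 0.15; adjusted p = 0.011). Of 3 mitoribosomal proteins with other symbols, CHCHD1 was at 0.20, DAP3 at -0.02 and PTCD3 at -0.07 against both controls. In limma 0 were called there, against untransduced cells or between the lines. In each comparison 0 had an unadjusted p under 0.05, against 14.3%, 29.15% and 38.86% of all tested genes.

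Against untransduced cells 14 members were called higher and 0 lower, with a median of 0.292; the ribosomal proteins of the cytoplasm had a median on the other side of 0, and the nuclear genes of the respiratory chain and ATP synthase one on the same side. Of all tested genes 6.18% were called higher and 5.64% lower, with a median of 0.039. Of 46 cytoplasmic ribosomal protein genes 0 were called higher and 2 lower, with a median of -0.062. Of 20 tested respiratory chain and ATP synthase genes 4 were called higher and 0 lower, with a median of 0.324. The medians of shTOX-2 minus shTOX-1 were -0.159 for the members, -0.066 for cytoplasmic ribosomal proteins and -0.135 for respiratory chain genes. The differences between these lists were not tested.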

How the data were processed

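Total RNA was biotin-labelled by an Affymetrix whole-transcript protocol, per the labels' protocols. The authors deposited a log2 intensity for each probe set on each array, a unit inferred from the spread of the values. How background was corrected, probes summarized and arrays normalized is, like the software, not given in the sources used here. Of 53617 probe sets on 8 arrays, with 0 missing values, 16098 carried exactly 1 gene symbol in the annotation used. The other 37519, without a symbol or with several, were left out. A gene counted as measured when it had a probe set with exactly 1 symbol. The 16098 probe sets stood for 14884 genes, and for genes with several probe sets the brightest by mean was used. The Entrez identifiers and symbols of all 73 members matched RefSeq. Testing was limited to genes whose mean reached the 40th percentile.

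Groups came from the sample titles. Differences were fitted over all 8 arrays in R 4.3.3 by limma (version 3.58.1; linear fits moderated by eBayes, no trend), with p-values adjusted by Benjamini-Hochberg over 8930 genes. Terms were line and shTOX for the lines and for shTOX against both controls; line and 3 treatments for contrasts with scramble or untransduced cells; line, shTOX-1, shTOX-2 and controls for the hairpins; and a mean per line and state for differences within lines. Values after ± are standard errors unless marked SD. The fits were checked on simulated data. The number of arrays limits the precision.

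Members, lists and the rule for named genes (called members by size, then the smallest p, in each direction) were chosen with earlier results of these data known. Alternatives were other filters, normalizations, probe set rules, a moderated fit with trend, a replicate block and leaving out arrays.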

Additional observations from a re-analysis of the deposited data

Results flagged for a closer look

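Both shTOX arrays of CCRF-CEM lay below both controls, and both shTOX arrays of HPB-ALL above them, for 2 of the 73 members (2.74%), against 5.16% of all tested genes with the lines on opposite sides. MRPL18, a protein of the central protuberance, was at 8.17 and 8.71 with shTOX in CCRF-CEM, against 8.82 with scramble and 8.83 untransduced, and at 8.88 and 9.0 with shTOX in HPB-ALL, against 8.81 in each control. The difference of the shTOX differences was -0.52 (limma adjusted p = 0.973). MRPL20, a large subunit protein, was at 8.07 and 8.05 with shTOX in CCRF-CEM, against 8.38 and 8.27, and at 8.22 and 8.16 with shTOX in HPB-ALL, against 7.88 and 8.04; the difference was -0.49 (adjusted p = 0.973). Neither difference passed the test, and the groups of 1 or 2 arrays were too small for a check of single arrays far from the others.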

How the results depend on the processing

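Member counts and medians were recomputed with no filter, a filter at the 60th percentile, quantile normalization, median-centred arrays, the mean of all probe sets, trend and robust moderation, and each array left out; shTOX minus controls also without a line term. With trend and robust moderation 3 members were called between scramble and untransduced arrays, and with the 60th percentile filter 2. For the refits in this section the share of all tested genes called was not counted, so the member counts cannot be set against it. The replicate block, with the construct as a term in both lines, called 1 member for shTOX against controls, MRPS7 (0.82; adjusted p = 0.0425), and 18 between the lines, MRPS23 among them (adjusted p = 0.0449). Same-numbered hairpins deviated together across genes (r = 0.225 over 8930 genes); the number names a hairpin, not a shared culture.

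With a shTOX or scramble array left out, member counts lay between 7 and 14 for shTOX minus untransduced. Most of those calls were lost when either untransduced array was left out. With any single array left out, counts lay between 8 and 13 for CCRF-CEM minus HPB-ALL. The median of the lines' difference in shTOX effect lay between -0.255 and 0.050.

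The sign of 6 small differences changed: without both untransduced arrays, MRPL43 (0.01), MRPL48 (0.02) and MRPS31 (0.00) for shTOX minus controls; without one array, MRPL18 for the same contrast (range -0.20 to 0.03), MRPL52 between the hairpins (-0.14 to 0.80) and MRPS25 for shTOX minus scramble (-0.32 to 0.07). Of the other values of named genes, 769 kept direction and side of the threshold, 40 lost and 11 gained a call. Most named differences were not called in the fits over all arrays, and only those called there could lose a call. The 769 are therefore no measure of how stable the calls were. The cause of these changes was not tested. Depth is not defined for arrays. The filter level of 5.18 is the 40th percentile of gene means and not a measured background, and levels near it may be limited by background.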
